A study of Mus musculus with 6 samples.

Results

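Imprinted genes are read from the copy inherited from a single parent, and many of them set the growth of the embryo and the behaviour of its stem cells. This section describes 9 imprinted growth-control genes (H19, Meg3, Dlk1, Peg3, Mest, Plagl1, Grb10, Ndn and Zdbf2), taken by gene name, with 1 row per gene identifier, from a table of 32285 genes. All 9 were found in the table and all 9 passed the filter on low values. The libraries were bulk RNA-seq of radial glial progenitors, stem cells that give rise to the cortex, taken from wild-type (WT) mouse embryos at E10.5. Dissociated neocortical cells were cultured, and about 2 h later received either the lactate dehydrogenase inhibitor GSK2837808A or an equal volume of its solvent, DMSO. After about 24 h, roughly 1000 living cells positive for CD133 were sorted per sample and amplified by Smart-seq2. There were 3 libraries per group, called DMSO and GSK here, which share genotype, stage and culture and differ by the inhibitor. The labels state 100 mM inhibitor, which is far above the micromolar doses usual in culture and may be an error of unit; it could not be checked from the files. The labels do not say whether the replicates came from separate litters or cultures, so the p-values measure only how far these samples spread, and that spread may be technical.

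The libraries held 7187089 to 10224348 whole reads, recovered from the deposited normalised values. Radial glial markers were present in all 6 libraries, but the sort also held RNA of other cells. Of 12 markers of mesenchyme, the connective tissue around the brain, 11 had a mean of at least 10 normalised reads. Their summed level was 27392 to 34681 normalised reads in DMSO and 17867 to 27100 in GSK libraries. The 10 radial glial markers summed to 20447 to 21089 and 10942 to 13568, the 10 neuron markers to 7587 to 15260 and 22653 to 27770, and the 9 red blood cell markers to 2391 to 20598 and 183780 to 273997. The 6 pericyte markers summed to 2102 to 2818 and 1306 to 1526, the 8 markers of myeloid cells to 68.7 to 345 and 530 to 1184, and the 8 endothelial markers to 58.4 to 88.3 and 50.9 to 83.1. No marker was at 0 in all libraries, and the part of these cells in the results below was not tested.

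As background, imprinted growth genes are often described in opposing parental sets: genes read from the paternal copy tend to promote growth, and genes read from the maternal copy tend to restrain it. Their marks are laid down as DNA methylation in egg or sperm and are kept through cell division by the methyltransferase DNMT1 and by ZFP57, a zinc finger protein that binds methylated TGCCGC. Of the genes described here, H19, Meg3 and Grb10 are read mainly from the maternal copy, with Grb10 read from the paternal copy in neurons, and Dlk1, Peg3, Mest, Plagl1, Ndn and Zdbf2 from the paternal copy. The reads do not separate the parental copies, so all values below are totals over both.

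Mest fell to 23.3% and Plagl1 to 27.3% of their DMSO level, Grb10 and Dlk1 fell by smaller amounts, and Ndn rose. Peg3, Meg3, Zdbf2 and H19 did not pass the test. Thus 1 of the 9 genes was higher and 4 were lower (limma on log2(value + 1), Benjamini-Hochberg adjusted p below 0.05), with a median log2 fold change of 0.17 and with 55.6% of the genes called. Among all 15073 genes tested, 17.0% were called higher and 19.1% lower, 36.1% in all, and the median was 0.01. The values of the GSK libraries lay wholly below those of the DMSO libraries for 4 genes and wholly above for 3, against 24.4% and 22.8% of all tested genes. Without GSK replicate 1 or GSK replicate 3, 3 of the 9 genes were called higher, and without DMSO replicate 2 or DMSO replicate 3, 2 were called lower. The calls among all genes tested also moved with the library left out. Without GSK replicate 1 or 3, 3062 of 14996 and 2103 of 15109 genes were called higher. With DMSO replicate 2 or 3 left out, 2238 of 15109 and 2397 of 15088 were called lower. In bulk samples, fewer cells of a type and less RNA per cell cannot be told apart, and the share of mesenchymal, neuronal and other cells in each library was not measured.

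**Figure D1:**
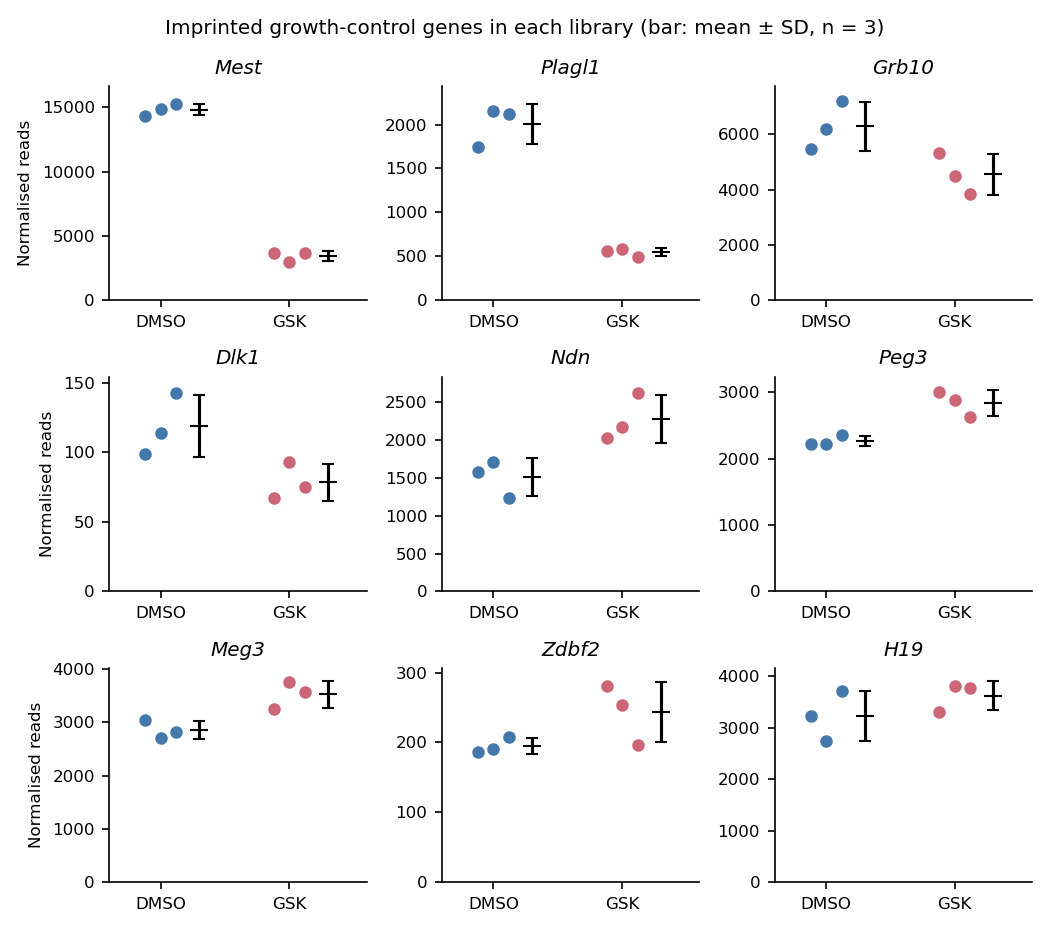
Normalised reads (vertical axis, from 0) of each of the 9 genes in the 3 DMSO (blue) and 3 GSK (red) libraries, with the mean ± SD beside the points. Mest and Plagl1 show a wide gap between the groups, whereas the points of H19 and Zdbf2 overlap.

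Mest encodes a membrane protein of the hydrolase fold that is abundant in embryonic mesoderm and neural progenitors (chromosome 6, 30723547 to 30748465, GRCm38). It had 14354, 14863 and 15222 normalised reads in the DMSO libraries and 3678, 2999 and 3692 in the GSK libraries. The groups lay far apart, and the GSK mean was 23.3% of the DMSO mean. This is a log2 fold change of -2.11 ± 0.14 (SE; limma adjusted p = 1.19e-09). Mest held position 65 from the largest fall among 9569 genes whose mean was 100 or more. The fall took the gene from position 56 to position 340 of the tested genes when ordered by level per kilobase of exon.

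Copg2, which encodes a coat protein of vesicles that bud from the Golgi, lies next to Mest on the opposite strand, and the annotated exons of both genes share 912 bases. That stretch is 23.1% of the exon length of Mest and 17.8% of that of Copg2, and since Smart-seq2 libraries carry no strand, reads from it cannot be assigned to either gene. Copg2 had 4105, 3826 and 3318 normalised reads in DMSO and 1270, 1216 and 1495 in GSK libraries. Its change was -1.50 ± 0.14 on the log2 scale (SE; limma adjusted p = 5.4e-08). Both genes of the pair were therefore lower in every GSK library, and how much of the fall of Copg2 comes from the shared stretch was not tested.

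Plagl1, also called Zac1, encodes a zinc finger transcription factor that can arrest the cell cycle and that is known to bind other imprinted genes (chromosome 10, 13060504 to 13131694). Its values were 1740, 2152 and 2123 normalised reads in DMSO and 560, 585 and 496 in GSK libraries. No GSK library came near the lowest DMSO library. Plagl1 changed by -1.87 ± 0.13 on the log2 scale (SE; limma adjusted p = 1.54e-09), and in the same order it held position 101 from the largest fall. Phactr2, a regulator of protein phosphatase and actin beside Plagl1 on the chromosome, had 404 ± 78.4 and 393 ± 31.9 normalised reads (mean ± SD, n = 3) without passing (log2 fold change -0.03, 95% interval -0.34 to 0.28).

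The promoters of Mest and Plagl1 are textbook sites of methylation inherited from the egg, so their sequence is shown with the ZFP57 core letters TGCCGC, or GCGGCA on the opposite strand, in capitals. The Mest stretch is the 250 bases before the RefSeq start at 30738050 (GRCm38.p6, chr6:30737800-30738049, plus strand), and the Plagl1 stretch is 30 bases around the match (chr10:13090730-13090759, plus strand), since the bases beside it are annotated as exon.
Mest: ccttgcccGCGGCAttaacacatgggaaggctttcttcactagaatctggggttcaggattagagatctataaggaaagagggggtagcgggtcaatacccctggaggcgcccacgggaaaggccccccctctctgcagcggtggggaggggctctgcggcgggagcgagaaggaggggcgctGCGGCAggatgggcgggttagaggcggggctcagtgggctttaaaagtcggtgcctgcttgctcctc
Plagl1: ctggcgtgttgcGCGGCAaagcccacggca
Each stretch was taken at the first RefSeq start of the gene with the letters before it, so both carry them by choice. Mest holds them at 2 places and Plagl1 at 1, while the window of another Mest start (chr6:30733256-30733555) does not hold them. Promoter windows, 250 bases before to 50 after a start, were found in RefSeq for 8 of the 9 genes, all but H19, and the letters were in a window of 5 of them: Mest, Plagl1, Grb10, Meg3 and Zdbf2. Among all 27025 genes with a window, 13.1% held them, and 9 of 36 other imprinted genes did. The median window has 52.7% G and C. Of the windows with the letters, those of Zdbf2 (51.3%) and Meg3 (53.7%) lay near it. That of Mest shown here (62.7%), Plagl1 (70.7%) and Grb10 (80.0%) lay above. The letters hold a CG, and the ratio of observed to expected CG was 0.384 in the median window. It was higher in all 5 windows: Zdbf2 (0.814), Meg3 (0.602), Mest (0.59), Plagl1 (0.696) and Grb10 (0.973). The part of this in the matches was not tested. No methylation was measured, and the 5 genes with the letters include some that fell and some that did not pass the test.

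Grb10 encodes an adaptor that binds the insulin and IGF1 receptors and restrains their signal (chromosome 11, 11930508 to 12038683). It had 5451, 6178 and 7199 normalised reads in DMSO and 5327, 4495 and 3854 in GSK libraries. The groups did not overlap, although the highest GSK value lay just under the lowest DMSO value. Grb10 changed by -0.46 ± 0.16 on the log2 scale (SE; limma adjusted p = 0.0245). The call rested on few libraries: it was lost without DMSO replicate 2 (log2 fold change -0.47, adjusted p = 0.079), DMSO replicate 3 (-0.36, 0.14), GSK replicate 2 (-0.46, 0.0837) or GSK replicate 3 (-0.35, 0.0914). Its neighbours did not pass. Cobl, an actin nucleator gene, had 66.1 ± 20.8 and 41.7 ± 7.01 normalised reads in DMSO and GSK libraries (adjusted p = 0.0595, and called in 3 of the alternatives), and Ddc, which encodes the enzyme that makes dopamine and serotonin, had 15.6 ± 2.54 and 28.2 ± 6.16 (adjusted p = 0.0639; mean ± SD, n = 3, limma).

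Dlk1 encodes a transmembrane relative of the Notch ligands that holds back differentiation (chromosome 12, 109452823 to 109463336). It had 98.8, 114 and 143 normalised reads in DMSO and 67.1, 92.8 and 75.3 in GSK libraries, from 59 to 154 whole reads per library. The GSK values were all lower than the DMSO values, by a narrow margin. Dlk1 changed by -0.59 ± 0.20 on the log2 scale (SE; limma adjusted p = 0.0252). The call was lost without DMSO replicate 2 (-0.61, adjusted p = 0.058), DMSO replicate 3 (-0.45, 0.13) or GSK replicate 1 (-0.48, 0.0603).

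DMSO replicate 3 had the highest level of both Grb10 and Dlk1. It also had the highest mesenchymal marker sum of the 6 libraries (34681 normalised reads) and the lowest neuron marker sum (7587). Within the GSK group, replicate 1 had the highest mesenchymal sum (27100) and the highest Grb10 (5327), but the lowest Dlk1 (67.1). Over the groups the mesenchymal sum was 0.709 times as high in GSK as in DMSO libraries and the neuron sum 2.15 times (exact permutation p = 0.1 for each, two-sided, which 3 against 3 cannot go below). The mesenchymal markers did not move as a block: the collagen genes Col1a1 and Col3a1 fell, Prrx1 rose, and the other 8 tested did not pass. The part of these cell types in the values of Grb10 and Dlk1 was not tested.

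Ndn, which encodes necdin, a MAGE family protein of neurons that slows cell division, was the 1 gene of the 9 that rose (chromosome 7, 62346569 to 62350262). Its values were 1584, 1712 and 1229 normalised reads in DMSO and 2030, 2180 and 2630 in GSK libraries. Every GSK library was above every DMSO library, and the GSK mean was 151% of the DMSO mean. Its log2 fold change came to 0.60 ± 0.15 (SE; limma adjusted p = 0.00321). Necdin is known as a product of young neurons, and 5 of 10 neuron markers rose and 1 fell in the same libraries, against 17.0% and 19.1% of all tested genes. DMSO replicate 3, with the lowest neuron marker sum, also had the lowest Ndn, and the part of neurons in the rise of Ndn was not tested.

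The neighbours of Ndn in the Prader-Willi cluster, of which Ube3a alone of those given here is read from the maternal copy in neurons, moved in both directions. Magel2, a MAGE family gene that acts with ubiquitin ligases, rose from 90.4 ± 16.7 to 150 ± 11.8 normalised reads (log2 fold change 0.74, limma adjusted p = 0.00316). Peg12, also called Frat3, belongs to a family that binds GSK3 in Wnt signalling, and fell from 1139 ± 210 to 453 ± 111 (log2 fold change -1.34, adjusted p = 2.29e-05; mean ± SD, n = 3). Mkrn3, Snrpn and Ube3a, at 0.26, -0.14 and 0.13 on the log2 scale, did not pass. The ratio of Ndn to Magel2 within a library differed by -0.14 on the log2 scale, GSK minus DMSO (exact permutation p = 0.4, two-sided; 0.533 adjusted over the 4 ratios tested).

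**Figure D2:**
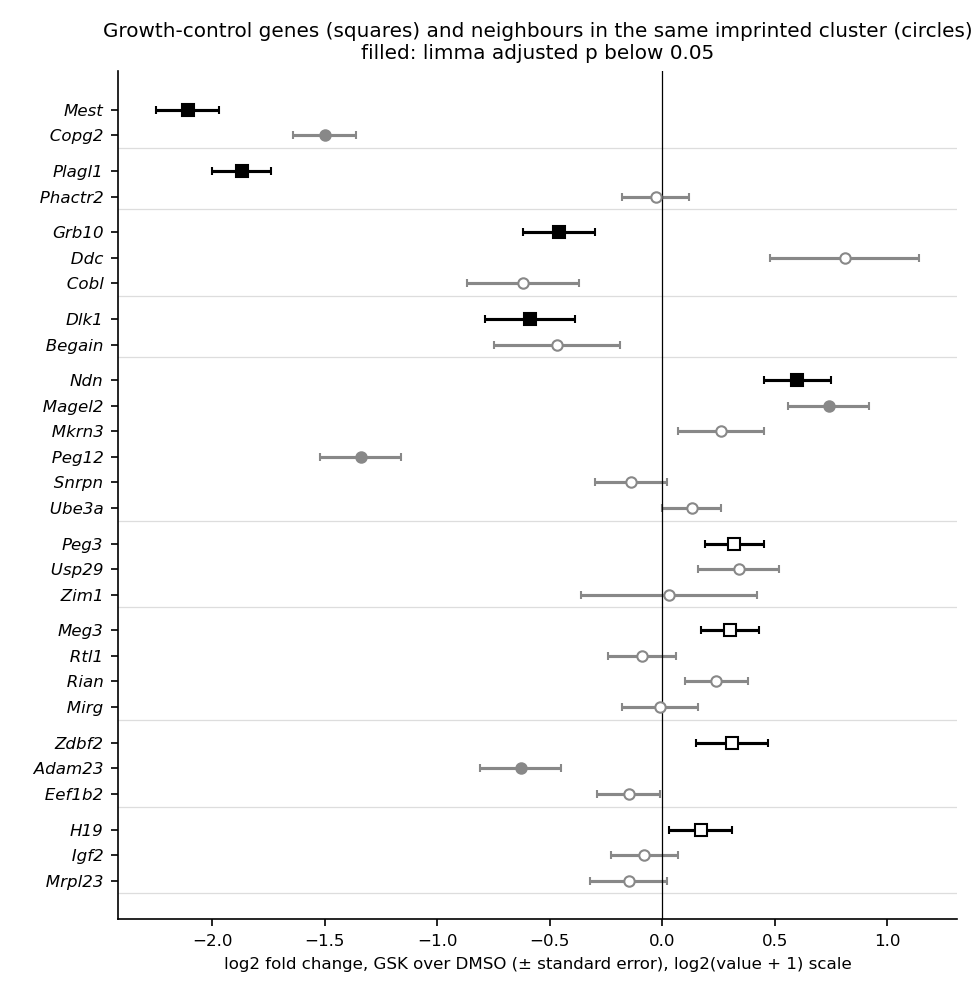
Log2 fold change of GSK over DMSO (horizontal axis, ± standard error) for each of the 9 genes (squares) and its measured neighbours in the imprinted cluster (circles), filled where limma's adjusted p was below 0.05. Mest and Copg2 lie together on the left, whereas Peg12 lies far to the left of Ndn and Magel2.

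Peg3, Meg3 and Zdbf2 had higher means in GSK libraries but did not pass the test. Peg3 encodes a zinc finger protein expressed in embryo and brain and linked to cell death and maternal behaviour (chromosome 7, 6703892 to 6730431). It had 2223, 2225 and 2356 normalised reads in DMSO and 3008, 2892 and 2631 in GSK libraries, so that the groups did not overlap. Its log2 fold change was 0.32 with a 95% interval of 0.05 to 0.59 (limma adjusted p = 0.0566). It was called with DESeq2 on the recovered reads (adjusted p = 0.0168), where 15.9% of all genes were called higher, and without GSK replicate 1 (0.025) or GSK replicate 3 (0.0378). Usp29, which starts beside Peg3 and runs the other way, had a log2 fold change of 0.34 (115 ± 19.2 and 145 ± 16.6 normalised reads, adjusted p = 0.149). The log2 ratio of Peg3 to Usp29 was 4.30 ± 0.25 in DMSO against 4.29 ± 0.10 in GSK libraries (SD, n = 3; exact permutation p = 1). Zim1, a further zinc finger gene of the cluster, had 14.1 ± 3.57 and 14.2 ± 2.05.

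Meg3 is a long noncoding RNA that restrains growth and is linked to p53 activity (chromosome 12, 109541001 to 109571726). Its values of 3036, 2702 and 2817 normalised reads in DMSO and 3254, 3747 and 3561 in GSK libraries did not overlap. The log2 fold change was 0.30 with a 95% interval of 0.03 to 0.58 (limma adjusted p = 0.0823), and it was called with DESeq2 (adjusted p = 0.0246) and without GSK replicate 1 (0.00504). Rian, the noncoding RNA that follows Meg3 on the maternal copy, had 2181 ± 257 and 2577 ± 239 normalised reads (log2 fold change 0.24, adjusted p = 0.181). Mirg and the retrotransposon-derived gene Rtl1 had log2 fold changes of -0.01 and -0.09, and Begain, beside Dlk1, of -0.47, and none of these passed.

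Meg3 and Dlk1 are read from opposite parental copies of 1 cluster. The log2 ratio of Meg3 to Dlk1 was 4.93, 4.55 and 4.29 in the DMSO libraries and 5.58, 5.32 and 5.54 in the GSK libraries, which do not overlap. It was higher in GSK by 0.89 (exact permutation p = 0.1, two-sided, which 3 against 3 cannot go below; 0.4 adjusted over the 4 ratios). A ratio within a library does not depend on how the library was scaled.

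Zdbf2 encodes a zinc finger protein that acts in the hypothalamus on feeding and growth (chromosome 1, 63273265 to 63314576). With 186, 190 and 208 normalised reads in DMSO and 281, 254 and 197 in GSK libraries, its groups overlapped, GSK replicate 3 lying within the DMSO range. The log2 fold change was 0.31 with a 95% interval of -0.02 to 0.64 (limma adjusted p = 0.136), and without GSK replicate 3 it was 0.46 and called (adjusted p = 0.0348). Adam23, a neighbour that encodes a cell surface protein of neurons, fell from 118 ± 9.93 to 76.2 ± 5.95 (log2 fold change -0.63, adjusted p = 0.0104), a call lost without DMSO replicate 1 (adjusted p = 0.0523). Eef1b2, a translation elongation factor gene on the other side of Zdbf2, had a log2 fold change of -0.15 and did not pass.

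The promoters of Peg3, Meg3 and Zdbf2 share the letters TGACGTCA, the palindrome known as the binding site of the CREB and ATF family, a search that was added after the sequences had been read. They are shown with TGACGTCA in capitals, along with any TGCCGC or its complement GCGGCA (GRCm38.p6). The Meg3 stretch is the 250 bases before its start (chr12:109540746-109540995, plus strand), and the Peg3 stretch 30 bases around the match (chr7:6730579-6730608, minus strand). The Zdbf2 stretch is 144 bases free of annotated exons of coding and long noncoding genes (chr1:63273121-63273264, plus strand). Exons of small RNA genes were not counted, and Gm24513 on the opposite strand, from 63273226, overlaps its end.
Peg3: actgactccgtTGACGTCAactccgtgcct
Meg3: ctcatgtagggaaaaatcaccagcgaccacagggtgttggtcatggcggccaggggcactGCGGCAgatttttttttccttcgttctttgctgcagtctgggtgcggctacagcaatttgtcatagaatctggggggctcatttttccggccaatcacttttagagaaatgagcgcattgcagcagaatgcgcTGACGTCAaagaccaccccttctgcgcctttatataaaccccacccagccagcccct
Zdbf2: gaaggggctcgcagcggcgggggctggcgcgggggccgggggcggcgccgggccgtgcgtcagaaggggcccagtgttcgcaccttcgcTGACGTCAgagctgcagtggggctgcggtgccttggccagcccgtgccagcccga
The TGCCGC match of Zdbf2 lies in the window of another of its starts, not in this stretch. The TGACGTCA match begins 57 bases before the start in Meg3 and 59 before it in Zdbf2, but 178 before it in Peg3. It was found in 3 of the 8 genes with a window and in 2.03% of all genes with a window. Of 36 other imprinted genes, 2 held it (Th and Usp29, whose window covers the Peg3 stretch). Since the letters were picked from these same promoters, their higher share among the 8 genes carries no weight. The palindrome GGGGCCCC, known to be bound by PLAGL1, was in the window of Peg3 alone among the 8 genes and in 1.25% of all genes. It was also in 3 of the 36 other imprinted genes (Ppp1r9a, Rasgrf1 and Usp29, whose window overlaps that of Peg3). A match describes the letters of the window and shows no binding.

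H19 is a long noncoding RNA that restrains growth and carries a microRNA in its first exon (chromosome 7, 142575529 to 142578143). It had 3236, 2752 and 3718 normalised reads in DMSO and 3298, 3805 and 3764 in GSK libraries. The groups overlapped, and the log2 fold change was 0.17 with a 95% interval of -0.13 to 0.47 (limma adjusted p = 0.379). Igf2, the fetal growth factor gene that shares enhancers with H19 and is read from the paternal copy, had 3809, 3491 and 4849 in DMSO and 3971, 3984 and 3453 in GSK libraries (log2 fold change -0.08, 95% interval -0.39 to 0.23, adjusted p = 0.711). DMSO replicate 3 held the highest Igf2 of all libraries. The log2 ratio of H19 to Igf2 was -0.32 ± 0.08 in DMSO against -0.07 ± 0.20 in GSK libraries (SD over n = 3; exact permutation p = 0.2, and 0.4 adjusted over the 4 ratios). Mrpl23, a mitochondrial ribosomal protein gene beside H19, had a log2 fold change of -0.15 and did not pass.

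**Figure D3:**
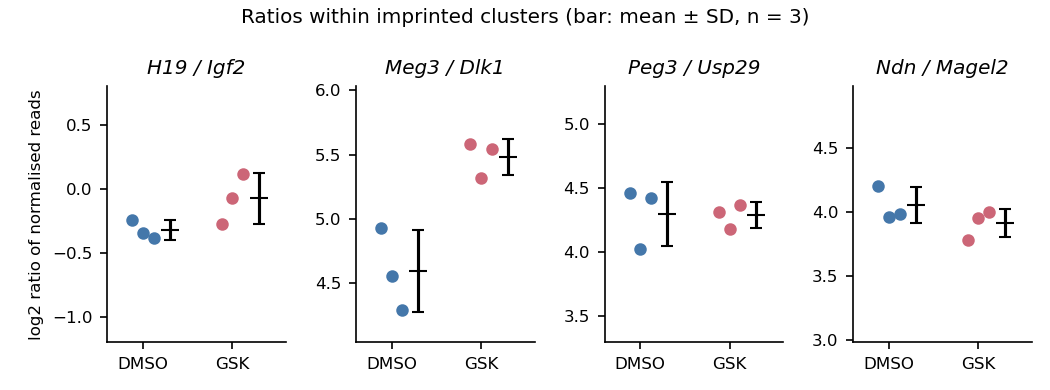
Log2 ratio of normalised reads of paired genes (vertical axis, each panel spanning the same height) in the 3 DMSO (blue) and 3 GSK (red) libraries, with mean ± SD. The Meg3 to Dlk1 ratio is higher in all 3 GSK libraries, and the Peg3 to Usp29 ratio is near 4.3 in both groups.

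Per kilobase of annotated exon, the order of levels in DMSO libraries was Mest (3755 ± 111 normalised reads per kilobase), H19 (1315 ± 196), Grb10 (691 ± 96.6), Ndn (408 ± 67.6), Plagl1 (256 ± 29.4), Peg3 (170 ± 5.7), Meg3 (158 ± 9.37), Dlk1 (21.0 ± 3.98) and Zdbf2 (15.4 ± 0.938; SD, n = 3). Peg3 and Meg3 did not differ beyond their spread. In GSK libraries H19 came first with 1472 ± 115 and Mest next with 876 ± 100, followed by Ndn with 617 ± 84.6 and Grb10 with 502 ± 81.2, whose spreads overlap. Plagl1, with 69.9 ± 5.92, came below Peg3 with 213 ± 14.5 and Meg3 with 195 ± 13.7. Dlk1, with 13.9 ± 2.32, and Zdbf2, with 19.3 ± 3.37, were the lowest, with overlapping spreads. Exon lengths pool all annotated transcripts, which lowers the level of a gene with many transcript forms such as Meg3.

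Across the other imprinted genes, most did not pass the test. Of 46 such genes, 38 were tested, 6 rose and 4 fell (median log2 fold change -0.07), so 26.3% were called against 36.1% of all genes. By parental copy, 4 of 20 tested paternally read genes rose and 2 fell, and 2 of 18 maternally read genes rose and 2 fell. Nap1l5, a nucleosome assembly protein gene, rose from 31.1 ± 5.95 to 173 ± 27.5 normalised reads (log2 fold change 2.44, limma adjusted p = 2.73e-08). Cdkn1c, which encodes the cell cycle inhibitor p57, rose from 332 ± 75.6 to 702 ± 123 (1.08, adjusted p = 3.37e-05). Impact, a regulator of the kinase GCN2, rose from 589 ± 26.4 to 916 ± 63.2 (0.63, adjusted p = 0.000476). The other rises were Magel2, H13 (922 ± 51.8 to 1422 ± 205) and Nnat (7801 ± 1228 to 11112 ± 2240), the last lost without DMSO replicate 1 (adjusted p = 0.0625), DMSO replicate 3 (0.166), GSK replicate 2 (0.057) or GSK replicate 3 (0.106). Without GSK replicate 1, 8 of the 38 genes were called lower, beside 3236 of all 14996 genes tested in that setting. Peg10, a retrotransposon-derived gene, fell from 1003 ± 58.8 to 354 ± 133 (-1.58, adjusted p = 0.00129), beside Peg12, Copg2 and the low gene Asb4 (38.4 ± 20.5 to 9.59 ± 2.80; mean ± SD, n = 3). H13, Nnat and Asb4 were named after their values were seen.

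A list of genes that act on DNA methylation and imprint marks, called imprint maintenance in the plot, held writers, readers and chromatin partners of the marks and also Tet1, Tet2 and Tet3, whose products remove methylation. Of its 20 genes 18 were tested, 11 fell and 3 rose (77.8% called), against 19.1% lower, 17.0% higher and 36.1% called among all tested genes, and the median log2 fold change was -0.44. None of the 11 that fell was a Tet gene: Tet2 rose, and Tet1 and Tet3, at -0.22 and 0.11 on the log2 scale, did not pass. Uhrf1, which brings DNMT1 to newly copied DNA, fell from 1664 ± 155 to 472 ± 29.2 normalised reads (log2 fold change -1.81, limma adjusted p = 1.42e-09). Dnmt1 fell from 2232 ± 284 to 669 ± 79.8 (-1.74, adjusted p = 6.94e-09), Hells, a chromatin remodeller, by 1.50 on the log2 scale, and Cbx5, which encodes heterochromatin protein HP1 alpha, by 0.91. Of the 10 radial glial markers, genes of dividing progenitors, 8 were also lower in the same libraries (median log2 fold change -1.39). Their summed level was 0.608 times that of DMSO, but the largest part of the sum was Vim, which did not pass. Vim had 10127 ± 122 and 9486 ± 1236 normalised reads (log2 fold change -0.10, limma adjusted p = 0.627). Emx2 did not pass either, and the 8 that fell changed by -1.01 (Prom1) to -3.78 (Fabp7). The part of dividing progenitors in the falls of the listed genes was not tested. Zfp57, named after its value was seen, rose from 904, 778 and 618 to 1276, 1455 and 1500 normalised reads (log2 fold change 0.89, adjusted p = 5.91e-05). Arid4b also rose, and Tet2 was not called without DMSO replicate 3 (adjusted p = 0.058) or GSK replicate 2 (0.0831), and the methylation of the imprinted genes was not measured.

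**Figure D4:**
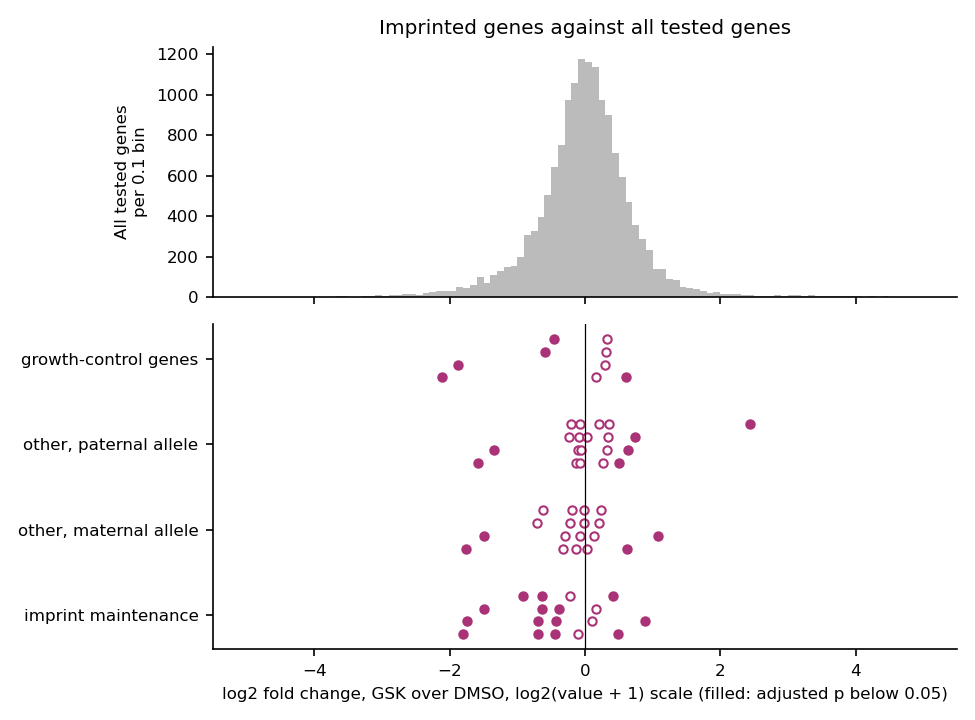
Top: number of tested genes in each 0.1-wide bin of log2 fold change of GSK over DMSO, with values beyond 5 counted in the end bins. Bottom: the 9 growth-control genes, 38 other imprinted genes by parental copy and 18 genes of the imprint maintenance list, Tet genes included, on the same horizontal axis, filled where the adjusted p was below 0.05, with vertical scatter for legibility; Mest and Plagl1 sit near -2 and Nap1l5 at 2.44.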

How the data were processed

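The deposited table holds normalised counts, a signal of reads per gene divided by a library factor; STAR, DESeq and the build GRCm38 are named per the submitters' processing notes, without versions or roles. Its 118098 rows were reduced to 1 per gene, 32285 genes. Whole reads were recovered from the steps of the deposited values (100% whole within 0.01). Genes with a mean of at least 10 were tested on log2(value + 1) with limma 3.58.1 (trend, robust, R 4.3.3) and Benjamini-Hochberg adjustment over 15073 genes at 0.05. Alternatives were edgeR 4.0.16 (TMM) and DESeq2 1.42.0, run on those reads, other pseudocounts, filters and scalings, a replicate block, and each library left out. On simulated data of this comparison (14935 genes, 200 of them changed), limma recovered 77.4% of genes changed by 1 and 99.0% by 2 on the log2 scale. Far fewer genes were changed there than were called in the data (5446 of 15073), so these rates may not carry over. Smaller changes, such as those of the genes of the 9 that did not pass, were not simulated. Coordinates and exon lengths are from GENCODE release 21 for mouse (GRCm38), promoters from RefSeq. Genes were named by rule: the 9 genes, their tested neighbours, the largest changes among other imprinted genes (up to 4 each way, mean at least 100), and the 4 genes of smallest p in the imprint maintenance list. The members and lists were chosen with earlier results of these data known.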

Additional observations from a re-analysis of the deposited data

How the results depend on the processing

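The falls of Mest and Plagl1 and the rise of Ndn kept their direction and call under all 15 alternatives. Of the 9 genes, 3 were called higher with DESeq2 (Peg3 at 0.33 and Meg3 at 0.30 on the log2 scale, beside Ndn). Leaving out 1 library, 1 to 3 were called higher and 2 to 4 lower, and 4 to 8 other imprinted genes were called lower (8 without GSK replicate 1). Of all genes tested, 1734 to 3062 were called higher and 2238 to 3236 lower with 1 library left out. Log2 fold changes over the libraries left out ran from -0.71 to -0.45 for Dlk1, -0.58 to -0.35 for Grb10, 0.26 to 0.36 for Meg3, 0.28 to 0.38 for Peg3 and 0.20 to 0.46 for Zdbf2; the cause was not tested. The sign changed for genes that were never called: with 1 library left out, Igf2 ran from -0.18 to 0.06, Mrpl23 from -0.29 to 0.06, Mirg from -0.09 to 0.10, Phactr2 from -0.14 to 0.12 and Zim1 from -0.11 to 0.21, and Zim1 was -0.03 with equal library totals and 0.0 when globin and rRNA-overlapping genes were also left out of the totals. With the replicate number as a block, 2662 of all genes were called higher and 2980 lower, and 1 and 4 of the 9. The deviations of same-numbered libraries correlated at 0.0131, -0.0236 and 0.0529, so no shared deviation was seen. This cannot show whether same-numbered samples came from the same litter or culture. Dlk1 could not be tested among genes with a mean of at least 100. With 59 to 154 reads, Dlk1 is the gene most limited by depth.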

Other observations

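Over the 6 libraries, the gene whose log2 level followed Mest most closely among 9021 protein coding genes compared was Mcm10, a DNA replication factor (Pearson r = 0.9998), at 406 ± 9.18 normalised reads (DMSO) against 106 ± 9.91 (GSK; SD, n = 3). Shroom2, an actin regulator of epithelial shape, and Fxyd6, a subunit that tunes the sodium pump, followed with r = 0.9979 each. For Ndn the closest were Cd24a, a cell surface protein (r = 0.9982, 1955 ± 397 and 3414 ± 619), Sod2, the mitochondrial superoxide dismutase (0.997), and Klc4, a kinesin light chain (0.9964). The points share library and depth and fall into the 2 groups, so these values are a description without a test.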
